A study of Mus musculus with 6 samples.

Results

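Fibronectin-expressing macrophages were examined in obstructed kidneys of SH045-treated and vehicle-treated mice. They were defined by counts of unique molecular identifiers (UMIs, one per captured transcript). A barcode counted as such a cell with at least 3 UMIs of Fn1, at least 5 of Lyz2, none of Epcam and fewer than 10 summed over Col1a1, Col1a2, Col3a1 and Dcn. It also needed at least 200 detected genes and at most 50% of UMIs from mitochondrial genes. The rule placed no limit on C1q transcripts. It found 1168 cells among 23578 barcodes that passed the gene and mitochondrial limits, out of 25978 deposited. They are called Fn1+ Lyz2+ cells below.

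All 6 libraries came from C57BL/6 mice, 1 mouse per library, whose ureter had been ligated on one side. The kidneys were taken 7 days later, from 3 mice given SH045, an inhibitor of the cation channel TRPC6, and 3 mice given vehicle. Dose, route, sex and age are not stated in the labels used here. Trpc6 itself had 0 UMIs in the Fn1+ Lyz2+ cells of every library, so the named target was not detectable in them at this depth. Dissociated cells were captured on a microfluidic chip, with 6000 cells aimed at per library.

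Fibronectin is a matrix glycoprotein that links integrins on cells to collagen and other matrix proteins. After ureteral obstruction, blood monocytes that carry the chemokine receptor CCR2 enter the kidney and mature into macrophages, alongside macrophages already resident there. Lyz2 encodes lysozyme and marks monocytes, macrophages and neutrophils. Retnla encodes RELM-alpha, a secreted protein of alternatively activated macrophages, and Ccl9 encodes a chemokine of the macrophage inflammatory protein family.

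The libraries held between 21186872 and 32256602 UMIs. In SH045 libraries 1, 2 and 3 there were 108, 118 and 45 Fn1+ Lyz2+ cells, against 236, 337 and 324 in Vehicle libraries 1, 2 and 3. Their median depth was 4080, 7082 and 7572 UMIs in the SH045 libraries, against 6352, 8094 and 8902 UMIs in the Vehicle libraries. Between libraries, 209 barcodes recurred, none of them among these cells. The share of deposited barcodes over the mitochondrial limit was 10.3% to 16.5% in SH045 libraries and 3.56% to 5.29% in Vehicle libraries. Of the SH045 libraries, library 1 stood apart within these cells. Its summed level of 10 neutrophil markers was 925 CPM (UMIs summed over these cells of a library and scaled to the same total in each), against 134 and 302 CPM in SH045 libraries 2 and 3 and 39.5 to 52.6 CPM in the Vehicle libraries. Of these 10 markers, Ly6g, Ngp and Camp were at 0 in all 6 libraries, and S100a8 had the highest mean, 138 CPM. Vehicle library 1 carried 20149 CPM of erythrocyte marker transcripts in these cells, against at most 2450 CPM in any other library. It also carried 2628 CPM of proximal tubule markers, against 78.1 to 627 CPM in the others. The part of these differences in the results was not tested, except where stated.

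The values that chose the cells are given as a description. Fn1, the fibronectin gene (ENSMUSG00000026193, GRCm38 chromosome 1, 71585520 to 71653200, minus strand), had a median of 11 UMIs per cell and a maximum of 123. At the limit, 125 cells held exactly 3 Fn1 UMIs, and 142 cells that met every other criterion held 2. The Lyz2 limit mattered for few cells, with 3 at exactly 5 UMIs and 3 just outside at 4. A further 36 barcodes with enough Fn1 and Lyz2 were left out because they held Epcam, an epithelial gene, and 6 because of collagen and decorin. Among the cells kept, 92.9% had no UMI of the 4 stromal genes. For comparison, 4.16% of 1177 Cd3-positive barcodes held an Fn1 UMI and 17 of them (1.44%) held at least 3 Fn1 and 5 Lyz2 UMIs. By library that last share was 0.366%, 0% and 0% in SH045, against 1.31%, 7.38% and 2.18% in Vehicle. Cells that met the rule were not taken out of the Cd3-positive set, so the 17 may themselves be Fn1+ Lyz2+ cells. Free RNA, mixed barcodes and Fn1+ Lyz2+ cells were not told apart there. Among 5514 Epcam-positive barcodes, 8.23% held an Fn1 UMI.

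The macrophage label was checked against other markers. Summed over 10 macrophage and monocyte markers, Fn1+ Lyz2+ cells held 12288 to 13276 CPM across the 6 libraries. Lyz2 cells with no Fn1 UMI, chosen by the same rule otherwise and 8985 in number, held 14103 to 16220 CPM. Ccr2, the receptor of recruited monocytes, was detected in 94.8% of Fn1+ Lyz2+ cells. Ly6c2, which marks freshly recruited classical monocytes, was detected in only 7.96%. Complement C1q, a product of mature tissue macrophages, reached 10 or more UMIs in 696 of the 1168 cells and was at 0 in 128. The 10 resident macrophage markers summed to 3720 to 5388 CPM, against 15637 to 18821 CPM in Fn1-zero cells, and Timd4 was at 0 in all 6 libraries. So the cells held monocyte and macrophage genes together, at a lower level of the resident set.

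Within Lyz2 cells, transcripts followed the Fn1 count in steps, which the rule did not use below its limit of 3 but which come from the same cells. The median over libraries of Retnla was 20.4 CPM in cells with no Fn1 UMI, 428 CPM with 1 or 2, 881 CPM with 3 or 4, 1524 CPM with 5 to 9 and 3232 CPM with 10 or more. Ccl9 stood at 263, 755, 1135, 1082 and 1529 CPM over the same steps. C1qa, a C1q subunit, ran the other way, with 3404 CPM in cells without Fn1 and 639 CPM in cells with 10 or more Fn1 UMIs. Stab1, a scavenger receptor of resident macrophages, had 200 CPM in cells without Fn1 and 16.9 CPM at the high end. These medians hide a spread at 10 or more Fn1 UMIs. Stab1 had 215, 20.2 and 80.9 CPM there in SH045 libraries, against 8.03 to 13.6 CPM in Vehicle libraries. C1qa had 1367, 640 and 1256 CPM in SH045 libraries, against 328 to 639 CPM in Vehicle libraries. In SH045 library 1, Stab1 was at 45.4 CPM and C1qa at 841 CPM with 3 or 4 Fn1 UMIs, so neither fell in steps there. Ccr2 stayed within a narrower range, with medians of 700 CPM at 0 Fn1 UMIs and 1051 CPM at 10 or more. The Retnla steps were not seen in every library: with 10 or more Fn1 UMIs, SH045 libraries 1 and 3 held 270 and 490.0 CPM, against 2833 to 4120 CPM in the Vehicle libraries and 3842 CPM in SH045 library 2. Median depth was 2870 to 4012 UMIs in cells with no Fn1 UMI, below that of the Fn1+ Lyz2+ cells of the same library in all 6, and its part in these steps was not tested.

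**Figure D1:**
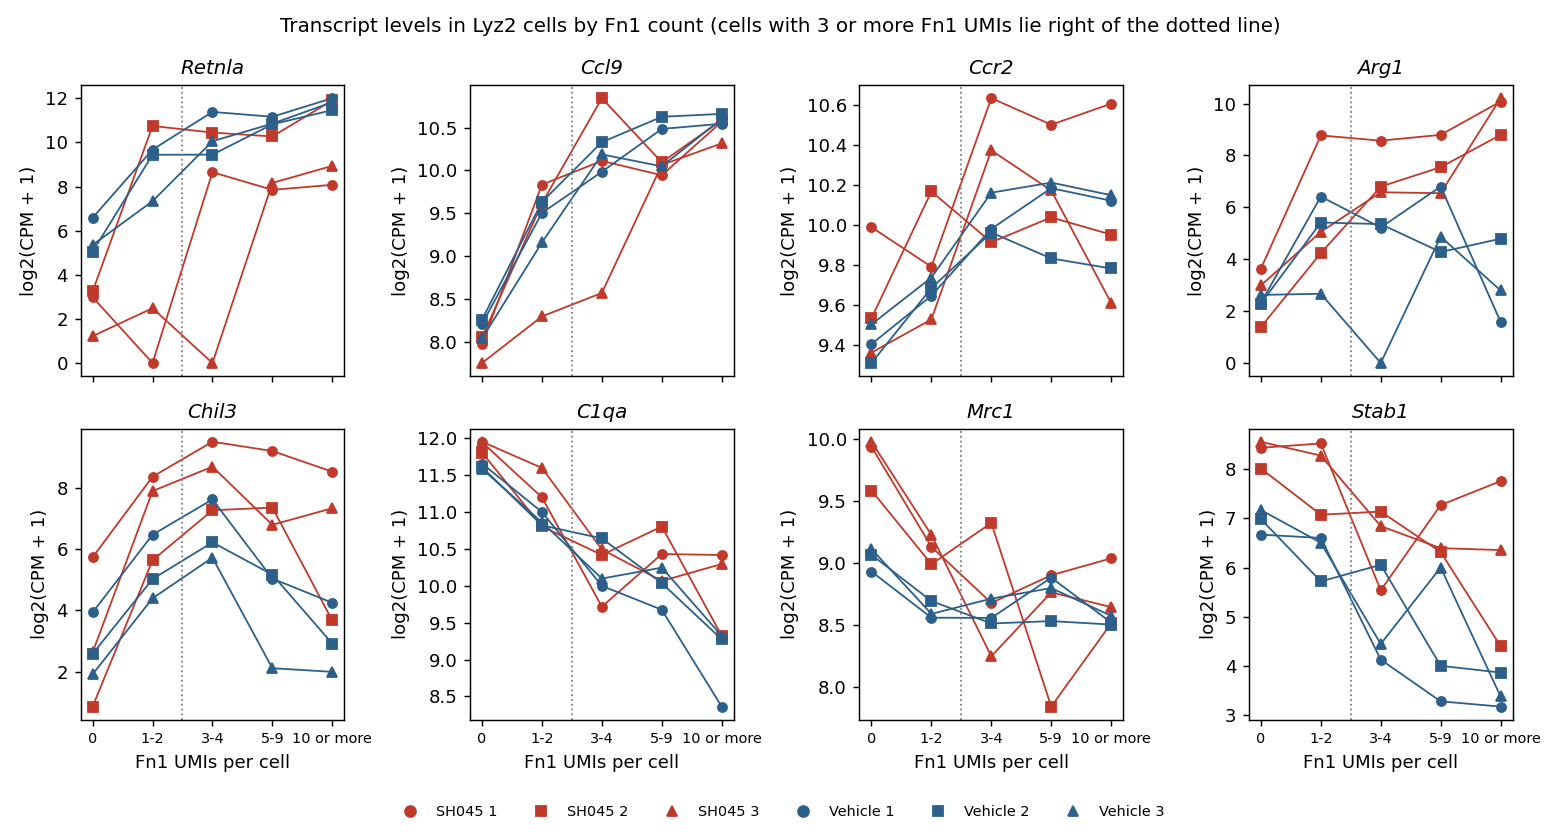
Level of 8 genes in Lyz2 cells (y axis, log2 of CPM plus 1) by the number of Fn1 UMIs per cell (x axis), 1 line per library, SH045 in red and Vehicle in blue. In every library Retnla and Ccl9 were higher at 10 or more Fn1 UMIs than at 0, and C1qa and Stab1 were lower. The steps between were not in 1 direction in every library. The Retnla lines of SH045 1 and SH045 3 lie below the others at 10 or more Fn1 UMIs.

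Against Fn1-zero Lyz2 cells, the Fn1+ Lyz2+ cells carried more of genes for secreted clotting factors and effector proteins. Since Fn1 split the 2 populations, these are levels and not tests. Of 2687 genes with at least 50 CPM in Fn1+ Lyz2+ cells, 1016 were higher there in all 6 libraries. Of 2719 genes with at least 50 CPM in Fn1-zero cells, 726 were lower in Fn1+ Lyz2+ cells in all 6. After Fn1, the highest median ratio belonged to F7, coagulation factor VII, at 101-fold, with 57.3 to 145 CPM in Fn1+ Lyz2+ cells and 0.404 to 2.65 CPM in Fn1-zero cells. Retnla followed at 73.5-fold and Mucl1, which encodes a small mucin-like protein, at 47.5-fold. Fn1+ Lyz2+ cells held 3.47, 521 and 5.39 CPM of Mucl1 in SH045 libraries 1, 2 and 3, against 55.4, 254 and 174 CPM in Vehicle libraries. F10, coagulation factor X, was 28.9-fold higher at 178 to 218 CPM. It differed little among the 6 libraries. Most Fn1-zero cells, 8185 of 8985, held 10 or more C1q UMIs. In the 800 with fewer, called C1q-poor, F10 had a mean of 33.0 CPM over libraries, against 196 CPM in Fn1+ Lyz2+ cells. F7 and Retnla had 2.40 and 14.6 CPM in these C1q-poor cells, against 103 and 2079 CPM in Fn1+ Lyz2+ cells.

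Other genes in this set encode proteins that macrophages secrete or fuse with. Ccl24, an eosinophil chemokine also called eotaxin-2, was 27.7-fold higher at the median. On the log2 scale that ratio was 4.79 to 7.15 across SH045 libraries, against 1.24, 1.44 and 4.80 in Vehicle libraries 1, 2 and 3. Arg1, which encodes the arginine-degrading enzyme arginase 1, had a log2 ratio of 5.98 to 7.67 in the SH045 libraries and 0.91 to 2.94 in the Vehicle libraries. Lyz1, the second lysozyme gene, was 21.3-fold higher, though reads may be shared with its close copy Lyz2. Its level in Fn1+ Lyz2+ cells was 10.4, 169 and 51.2 CPM in SH045 libraries, against 686, 532 and 459 CPM in Vehicle libraries. Mmp12, macrophage elastase, was 12.9-fold higher, Ear2, an eosinophil-associated ribonuclease with close paralogs, 11.6-fold and Dcstamp, a receptor needed for macrophage fusion, 11.5-fold. The gap was smaller against C1q-poor Fn1-zero cells. These had means of 346, 463 and 28.6 CPM for the 3 genes, against 1729, 1147 and 69.0 CPM in Fn1+ Lyz2+ cells. Vcan, the matrix proteoglycan versican, was 13.3-fold higher at the median. Its log2 ratio was 5.60 to 6.10 in the SH045 libraries and 1.38 to 1.87 in the Vehicle libraries. Ccl9 was 5.12-fold higher and its neighbour Ccl6, a related chemokine, 9.17-fold.

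The genes lowest in Fn1+ Lyz2+ cells were led by Ccl8, a monocyte chemokine, which had a median of 22.4-fold more in Fn1-zero cells. Lilra5, an activating immunoglobulin-like receptor, had 18.0-fold more there, and Slco2b1, an organic anion transporter, 16.7-fold more. Igf1, insulin-like growth factor 1, had 4.87 to 21.8 CPM in Fn1+ Lyz2+ cells, against 109 to 145 CPM in Fn1-zero cells, a median of 12.03-fold more in Fn1-zero cells. Hpgd, which degrades prostaglandins, had 11.96-fold more. The B-cell receptor gene Cd79b had 13.2-fold more there too. C1qa and Stab1 were also lower in Fn1+ Lyz2+ cells, with median ratios of 0.264 and 0.175. The C1q-poor Fn1-zero cells held less of several genes named here than Fn1+ Lyz2+ cells did. Their means were 11.4 CPM for Ccl8, 4.44 for Lilra5, 1.76 for Slco2b1, 3.78 for Igf1 and 3.34 for Cd79b. Fn1+ Lyz2+ cells had means of 34.2, 9.59, 3.77, 10.7 and 7.01 CPM. Hpgd went the other way, at 23.5 CPM in C1q-poor Fn1-zero cells and 18.0 CPM in Fn1+ Lyz2+ cells. The part of the C1q mix in these ratios was not tested.

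**Figure D2:**
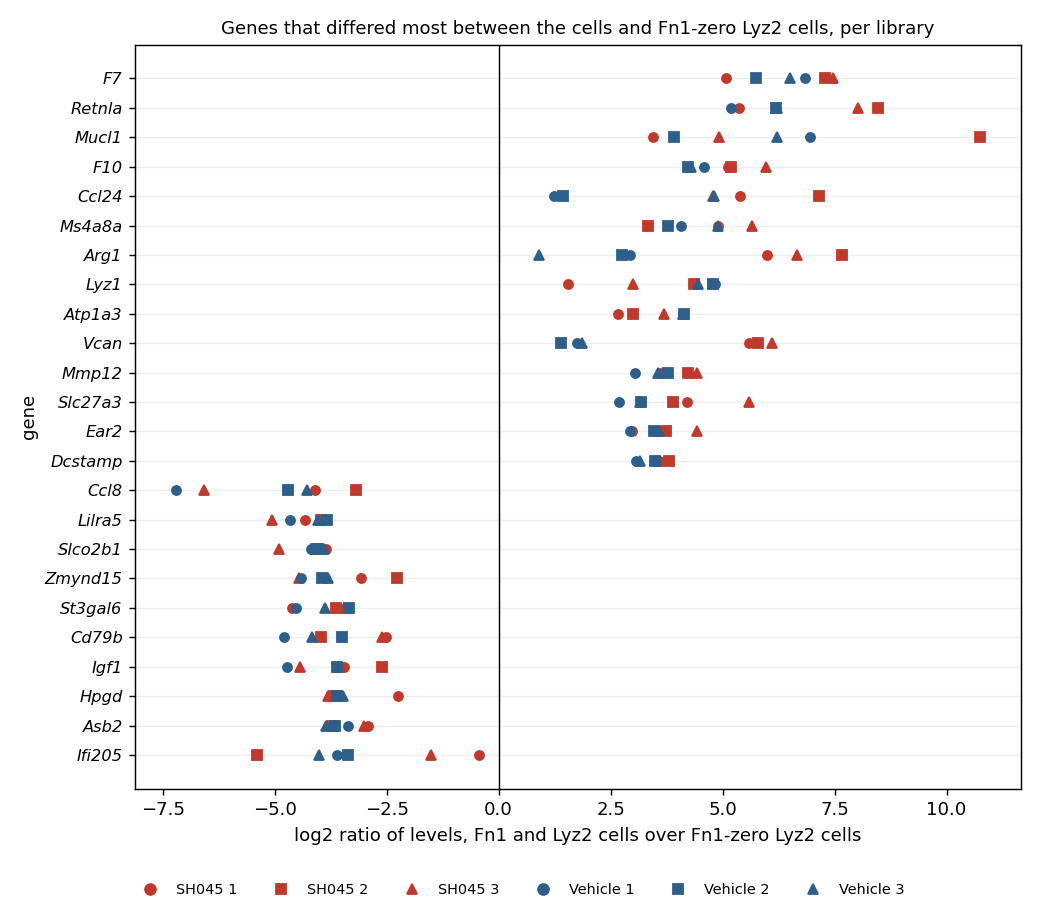
Log2 ratio of the level in Fn1+ Lyz2+ cells over that in Fn1-zero Lyz2 cells (x axis) for the genes with the highest and lowest median ratios, 1 point per library. F7 and Retnla lie highest and Ccl8 lowest, and the Vcan and Arg1 points of the SH045 libraries lie right of those of the Vehicle libraries.

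Fewer Fn1+ Lyz2+ cells were recovered from SH045 kidneys. Their share of kept barcodes was 3.16%, 2.96% and 1.24% in SH045 libraries 1, 2 and 3, against 5.69%, 7.90% and 7.83% in Vehicle libraries 1, 2 and 3. Every SH045 library lay below every Vehicle library. The means were 2.45 ± 1.05% in SH045 and 7.14 ± 1.25% in Vehicle (SD, n = 3 each), a ratio of 0.34. A two-sided exact permutation test gave p = 0.1, the smallest that 3 against 3 libraries allow, so the difference cannot pass 0.05 by this test. A lower share of Fn1-marked cells was already known in these data when the cells were chosen, so the test is no independent support. A share cannot tell fewer Fn1+ cells from less Fn1 RNA per cell below the limit, nor from other cells recovered in greater number. Cd3-positive barcodes with at least 3 Fn1 and 5 Lyz2 UMIs were also rarer in SH045 (0% to 0.366%, against 1.31% to 7.38% in Vehicle). In Vehicle library 2 their share was close to that of Fn1+ Lyz2+ cells among kept barcodes. They may themselves be Fn1+ Lyz2+ cells, so their share does not measure free RNA. The part of free RNA in the difference was not tested.

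The same order held with other denominators. Among Lyz2 cells, the share was 9.52%, 7.89% and 2.45% in SH045 libraries, against 11.7%, 18.3% and 14.02% in Vehicle libraries (exact permutation p = 0.1). After each barcode was thinned to 2000 UMIs, which every kept barcode held, it was 2.02%, 1.81% and 0.64% in SH045 libraries, against 3.74%, 4.51% and 4.76% in Vehicle libraries (exact permutation p = 0.1). Cells with 10 or more C1q UMIs made up 1.49%, 1.63% and 0.72% of kept barcodes in SH045 libraries, against 2.92%, 5.11% and 5.20% in Vehicle libraries. Those with fewer made up 1.67%, 1.33% and 0.52% in SH045 libraries, against 2.77%, 2.79% and 2.63% in Vehicle libraries. Both the C1q-rich and the C1q-poor cells were thus less frequent in every SH045 library. Fn1-zero Lyz2 cells made up 36.8 ± 9.91% in SH045 and 39.3 ± 6.06% in Vehicle (SD, n = 3 each), and these groups overlapped.

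**Figure D3:**
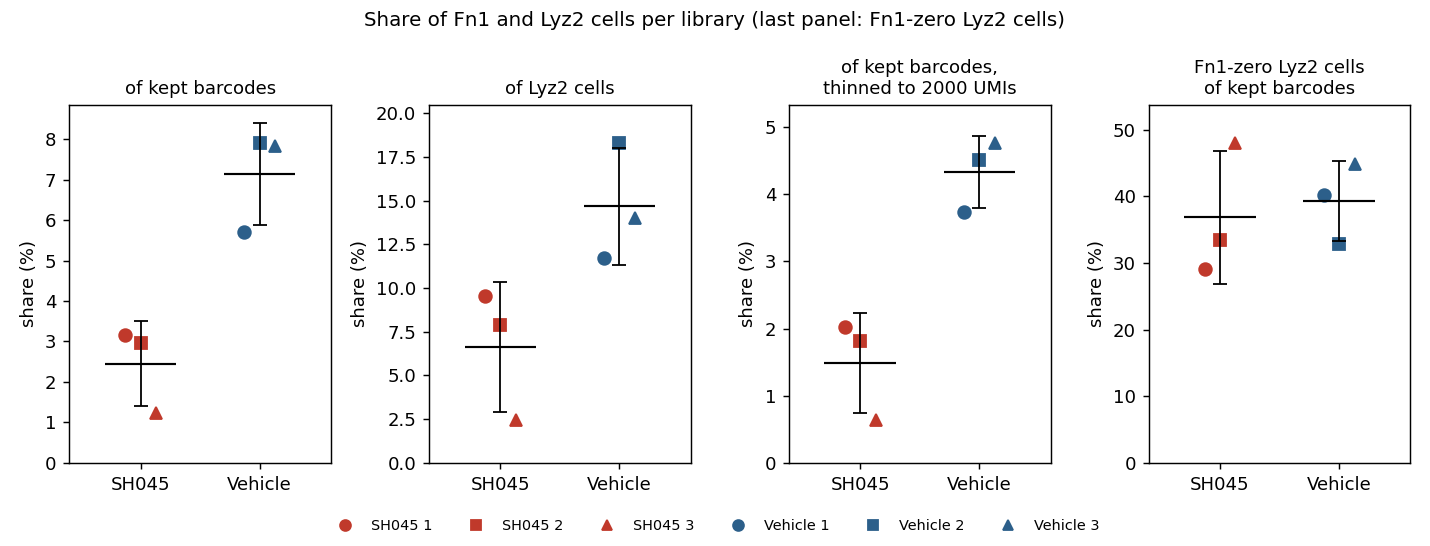
Share of Fn1+ Lyz2+ cells among kept barcodes, among Lyz2 cells and among barcodes thinned to 2000 UMIs, and share of Fn1-zero Lyz2 cells (y axes, percent), with 1 point per library, the mean as a bar and the SD as whiskers. In the first 3 panels all SH045 points lie below all Vehicle points, and in the last panel the groups overlap.

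Retnla was detected in fewer Fn1+ Lyz2+ cells after SH045. At least 1 Retnla UMI was found in 7.41%, 43.2% and 20% of these cells in SH045 libraries 1, 2 and 3, against 61.4%, 48.1% and 57.4% in Vehicle libraries 1, 2 and 3. The groups did not overlap, but SH045 library 2 lay close to Vehicle library 2. The exact permutation p was 0.1, and 0.171 after Benjamini-Hochberg adjustment over the 12 features compared. Thinned to 2000 UMIs, the shares were 6.48%, 39.0% and 13.3% in SH045 libraries, against 52.1%, 41.2% and 44.4% in Vehicle libraries. Thinned Fn1-zero cells gave 0.201%, 1.05% and 0.115% in SH045 libraries, against 1.74%, 2.07% and 2.64% in Vehicle libraries. Thinned Epcam-positive barcodes, which should lack Retnla, gave at most 0.391% in SH045 and 2.46% in Vehicle libraries. The shares in Fn1+ Lyz2+ cells lay above that background in every library.

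The Retnla level (ENSMUSG00000061100, GRCm38 chromosome 16, 48842551 to 48844461, plus strand) split the SH045 libraries. Fn1+ Lyz2+ cells held 288, 3042 and 361 CPM in SH045 libraries 1, 2 and 3, against 3472, 2369 and 2945 CPM in Vehicle libraries 1, 2 and 3. SH045 libraries 1 and 3 were low, and SH045 library 2 lay within the Vehicle range. The log2 change was -1.35 ± 1.14 (SE) and did not pass the test, at an adjusted p of 0.63 in edgeR's quasi-likelihood test over all genes tested. Without SH045 library 2, the change was -3.40 at an adjusted p of 1.41e-05, so that 1 library decides the call. The C1q-poor cells showed the same split, with 77.2, 1451 and 290 CPM in SH045 libraries and 1571, 1221 and 1225 CPM in Vehicle libraries. The C1q-rich cells held 460, 4244 and 406 CPM in SH045 libraries, against 5382, 3009 and 3783 CPM in Vehicle libraries.

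Ccl9 (ENSMUSG00000019122, GRCm38 chromosome 11, 83572919 to 83578636, minus strand) was carried by nearly all of the cells in both groups. It was detected in 86.1%, 98.3% and 82.2% of them in SH045 libraries, against 94.1%, 95.6% and 97.2% in Vehicle libraries. The Ccl9 level was 1267, 1514 and 1088 CPM in SH045 libraries, against 1393, 1571 and 1405 CPM in Vehicle libraries. The groups overlapped. The log2 change was -0.34 ± 0.17 (SE), at an adjusted p of 0.346 in edgeR. Fn1 itself, chosen by the rule and therefore not tested, had 2184, 2137 and 1756 CPM in SH045 libraries and 1974, 1834 and 2104 CPM in Vehicle libraries, with overlap.

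Arg1, Chil3 and Stab1 were detected in more of the Fn1+ Lyz2+ cells after SH045. Arg1 was found in 38.9%, 15.3% and 28.9% of cells in SH045 libraries, against 4.24%, 8.01% and 1.54% in Vehicle libraries. Chil3, which encodes the chitinase-like protein Ym1, was found in 39.8%, 7.63% and 22.2% of cells in SH045 libraries, against 4.66%, 2.67% and 1.54% in Vehicle libraries. Stab1 was found in 26.9%, 13.6% and 24.4% of cells in SH045 libraries, against 4.66%, 10.1% and 9.57% in Vehicle libraries. All 3 genes were higher in every SH045 library, each with an exact permutation p of 0.1 and an adjusted p of 0.171. Thinned Cd3-positive barcodes held Arg1 in at most 0.366% and Chil3 in at most 0.82% of any library. For Stab1 they gave 6.96%, 6.70% and 6.79% in SH045 libraries, against 3.92%, 6.56% and 4.37% in Vehicle libraries. Thinned Fn1+ Lyz2+ cells gave 16.7%, 7.63% and 15.6% for Stab1 in SH045 libraries, against 1.69%, 4.45% and 2.47% in Vehicle libraries. The Vehicle shares thus lay below those of Cd3-positive barcodes, and SH045 library 2, at 7.63% against 6.70%, lay close to them. Thinned Epcam-positive barcodes gave 1.66%, 0.94% and 2.42% for Stab1 in SH045 libraries, against 1.34%, 0.82% and 1.72% in Vehicle libraries. The Fn1+ Lyz2+ shares lay above those in every library, so the reading depends on the barcodes compared. Stab1 was also detected in more of the thinned Fn1-zero cells, at 34.3% in SH045 and 18.4% in Vehicle on average, without overlap. Retnla and Arg1 were rarely found in the same cell, with 9 of the 1168 cells carrying both, 1.604% of the Retnla-positive and 7.83% of the Arg1-positive cells. That count pools libraries that differ in both genes.

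Other features varied less or went the other way. Mrc1, the mannose receptor, was found in 50%, 70.3% and 68.9% of cells in SH045 libraries, against 77.1%, 78.3% and 81.2% in Vehicle libraries, with an exact permutation p of 0.1 and an adjusted p of 0.171. Thinned, the shares were 38.9%, 44.1% and 35.6% in SH045 libraries, against 46.6%, 46.0% and 50.9% in Vehicle libraries, a difference of -8.34 points in place of -15.8. Ccr2 was found in 87.3% to 91.7% of cells in SH045 libraries and 95.8% to 96.6% in Vehicle libraries, but these ranges overlapped after thinning. Ly6c2 was found in 32.4%, 5.08% and 17.8% of cells in SH045 libraries, against 5.51%, 5.34% and 4.01% in Vehicle libraries, which overlap. The proliferation gene Mki67 was found in 8.89% to 12.96% of cells in SH045 libraries and 10.7% to 12.7% in Vehicle libraries (exact permutation p = 0.6). The share of cells with 10 or more C1q UMIs was 53.4 ± 5.48% in SH045 and 60.8 ± 8.27% in Vehicle (SD, n = 3 each; exact permutation p = 0.3).

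UMIs were then summed per library over the Fn1+ Lyz2+ cells and tested with edgeR's quasi-likelihood test at an adjusted p under 0.05. Of 8157 genes tested, 45 were called (0.552%), 37 higher (0.454%) and 8 lower (0.0981%) in SH045. The libraries of the 2 groups did not overlap for any of the 45, while this held for 24.1% of all genes tested. The 45 were chosen by a test on these same libraries, so their lack of overlap is no added support. The balance depends on the processing, with 187 higher and 176 lower when no filter on low counts was used and 34 higher and 16 lower with a trend on transcript length removed. The unadjusted p was under 0.05 for 1297 genes. SH045 library 3 entered with 45 cells. Leaving out 1 Vehicle library lost 27 to 35 of the 45 calls, and leaving out 1 SH045 library lost 3 to 21, while none of the 45 changed sign. The 8 genes called in all 6 fits that left out 1 library were Cd209a, Emp1, Gpnmb, Ltc4s, Mmp14, Msr1, Pf4 and Syngr1. Of the 37 genes called higher, 12 had fewer than 3 Vehicle libraries over the level that the filter asks for, and 2 of the 8 called lower had fewer than 3 SH045 libraries over it. Such genes were tested only because of the group in which they were high, so their direction is no evidence. They include Gpnmb, Abcc3, Syngr1, Ltc4s, Il1r2, Chil1, Sox4, Emp1 and Ccdc80. All 45 were also called with no filter.

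Among the called genes the largest log2 change was that of Gpnmb, a membrane glycoprotein of lipid-laden and lysosome-rich macrophages. It had 59.0, 44.8 and 13.5 CPM in SH045 libraries, against 1.22, 1.70 and 0 CPM in Vehicle libraries, and the groups lay far apart. The log2 change was 5.18 ± 0.63 (SE, edgeR adjusted p = 0.0025), on a total of 78 UMIs in SH045 and 7 in Vehicle. With 0 Vehicle libraries over the filter level, Gpnmb was tested only because of its SH045 level, so its direction is no evidence. Arg1 (GRCm38 chromosome 10) followed with 731, 349 and 708 CPM in SH045 libraries, against 31.0, 26.6 and 9.65 CPM in Vehicle libraries. Every SH045 library was more than 10 times the highest Vehicle library. Its log2 change of 4.56 ± 0.53 passed narrowly (edgeR adjusted p = 0.0483). The Arg1 call was lost without SH045 library 1 (0.24), SH045 library 3 (0.117), Vehicle library 1 (0.0641) or Vehicle library 2 (0.134), with log2 changes of 4.17 to 4.83 in the 6 such fits.

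Pf4, platelet factor 4, a chemokine of platelets and of resident macrophages, also rose. It had 1316, 840 and 598 CPM in SH045 libraries, against 66.9, 95.3 and 96.5 CPM in Vehicle libraries. All SH045 libraries were high, and the log2 change was 3.21 ± 0.25 (edgeR adjusted p = 7.11e-05). In Fn1-zero cells Pf4 stood at 493 to 801 CPM in SH045 libraries and 493 to 624 CPM in Vehicle libraries. Its level in Fn1+ Lyz2+ cells was thus below that of Fn1-zero cells in every Vehicle library. In C1q-poor cells alone it had 873, 592 and 801 CPM in SH045 libraries, against 2.43, 34.3 and 4.07 CPM in Vehicle libraries. The log2 change there was 5.56, and 2.82 in C1q-rich cells, though neither passed in these smaller sets (edgeR adjusted p = 0.137 and 0.0541). Ltc4s, which makes leukotriene C4, had 95.5, 49.4 and 91.5 CPM in SH045 libraries, against 7.91, 5.79 and 12.3 CPM in Vehicle libraries (log2 change 2.93 ± 0.32, edgeR adjusted p = 0.000491). Syngr1, a synaptic vesicle membrane protein, changed by 3.11 ± 0.39 on the log2 scale (edgeR adjusted p = 0.00144) on 59 and 25 UMIs in SH045 and Vehicle. Ltc4s and Syngr1 were tested only because of their level in SH045 libraries, so their direction is no evidence.

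Scavenging and matrix-degrading genes were among the firmest calls. Msr1, the class A scavenger receptor, had 179, 116 and 205 CPM in SH045 libraries, against 36.5, 47.7 and 38.6 CPM in Vehicle libraries. Mmp14, a membrane-bound collagenase that also cuts fibronectin, had 144, 88.4 and 145 CPM in SH045 libraries, against 18.3, 32.0 and 24.3 CPM in Vehicle libraries. Neither gene's groups overlapped. The log2 changes were 1.80 ± 0.21 for Msr1 and 2.09 ± 0.24 for Mmp14 (edgeR adjusted p = 0.000699 for each). Emp1, a tetraspan membrane protein, rose by 2.44 ± 0.36 (edgeR adjusted p = 0.00509). Emp1 was tested only because of its level in SH045 libraries, so its direction is no evidence.

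Mmp9, gelatinase B, had the largest fold of all yet was not called. It had 26.0, 257 and 388 CPM in SH045 libraries, against 1.22, 1.70 and 0.666 CPM in Vehicle libraries, a log2 change of 7.29 ± 1.47 (edgeR adjusted p = 0.157). SH045 library 1 was the lowest of its group, and without it the log2 change was 7.84 with an adjusted p of 8.44e-11. Neutrophils also make Mmp9. In SH045 library 2 the neutrophil sum of 134 CPM held 89.5 CPM of Mmp8, a neutrophil collagenase, while S100a8 and S100a9 were within the Vehicle range. In C1q-poor cells the sum was 1625, 104 and 76.0 CPM in SH045 libraries, against 43.7, 56.1 and 94.6 CPM in Vehicle libraries, with overlap. In C1q-rich cells it was 353, 157 and 446 CPM in SH045 libraries, against 35.4, 47.7 and 32.2 CPM in Vehicle libraries, without overlap. In the cells with no S100a8 or S100a9 UMI, an alternative chosen after seeing the data, the neutrophil sum was 103, 82.7 and 76.4 CPM in SH045 libraries, against 18.9, 31.1 and 11.2 CPM in Vehicle libraries, with Mmp8 as its most abundant gene. There 39 genes were called, 31 of them among the 45, and the Mmp9 log2 change was 7.98. The part of the remaining neutrophil transcripts was not tested.

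The remaining large rises were called with less margin. Abcc3, an organic anion exporter, rose by 3.38 ± 0.50 on the log2 scale (edgeR adjusted p = 0.00553). Without SH045 library 1, Vehicle library 1 or Vehicle library 3 its adjusted p was 0.0566 to 0.0846. Il1r2, the decoy receptor for interleukin 1, rose by 2.84 ± 0.54, and Chil1, a chitinase-like secreted protein, by 2.55 ± 0.50 (edgeR adjusted p = 0.0354 and 0.0362). The Il1r2 call was lost without SH045 library 2, SH045 library 3, Vehicle library 1 or Vehicle library 3 (0.0601 to 0.185), and that of Chil1 without SH045 library 3 or any 1 Vehicle library (0.116 to 0.188). Spint1, a serine protease inhibitor, rose by 2.46 ± 0.36 and Sox4, a transcription factor, by 2.44 ± 0.42 (edgeR adjusted p = 0.014 and 0.0163). Both calls were lost without SH045 library 1 or any 1 Vehicle library (0.0546 to 0.12). Abcc3, Il1r2, Chil1 and Sox4 were tested only because of their level in SH045 libraries, so their direction is no evidence.

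The clearest fall was in Cd209a, a DC-SIGN family lectin of monocyte-derived dendritic cells. It had 20.8, 25.3 and 16.2 CPM in SH045 libraries, against 138, 112 and 166 CPM in Vehicle libraries, and the groups lay far apart. It fell by 2.84 ± 0.24 on the log2 scale (edgeR adjusted p = 4.62e-05). C1q-poor cells held 42.5, 16 and 41.4 CPM in SH045 libraries, against 231, 276 and 346 CPM in Vehicle libraries. C1q-rich cells held 3.15, 32.2 and 0 CPM in SH045 libraries, against 43.9, 21.2 and 79.2 CPM in Vehicle libraries, where the groups overlapped and the call was lost (adjusted p = 0.475). The other 9 dendritic cell markers together had 125, 101 and 108 CPM in SH045 libraries, against 119, 93.6 and 102 CPM in Vehicle libraries, which overlapped. Most of that sum was Cd24a, at a mean of 97.3 CPM, a gene not specific to dendritic cells, so it says little of the other 8 markers.

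Plaur, the urokinase receptor, which starts plasmin formation at the cell surface, fell too. It had 93.7, 87.2 and 86.2 CPM in SH045 libraries, against 150, 161 and 169 CPM in Vehicle libraries, with little spread within each group. It fell by 1.02 ± 0.16 (edgeR adjusted p = 0.00767). Its adjusted p was 0.0508 without Vehicle library 1 and 0.0688 without Vehicle library 3. Ccnb2, a mitotic cyclin, fell by 1.15 ± 0.18 (edgeR adjusted p = 0.0101), and its call was lost without any 1 Vehicle library (0.051 to 0.062). Ccdc80, a secreted matrix protein, Rem1, a small GTPase, Fbxo6, a ubiquitin ligase subunit, and Mrpl42, a mitochondrial ribosomal protein, fell by 0.87 to 2.03 (edgeR adjusted p = 0.0342 to 0.0483). These 4 calls were each lost without SH045 library 3 and without any 1 Vehicle library, and those of all but Fbxo6 without SH045 library 1 (0.059 to 0.241). Ccdc80 was tested only because of its level in Vehicle libraries, so its direction is no evidence.

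Of the other genes looked up, Tgm2, the crosslinking enzyme transglutaminase 2, had 142, 27.5 and 72.7 CPM in SH045 libraries, against 14.6, 22.1 and 12.3 CPM in Vehicle libraries. Its groups did not overlap, but it did not pass (edgeR adjusted p = 0.158). The inflammatory cytokine gene Il1b had 479, 33.3 and 188 CPM in SH045 libraries, against 60.8, 78.6 and 36.6 CPM in Vehicle libraries, which overlapped. Ccl2, the ligand of CCR2, had 125, 166 and 102 CPM in SH045 libraries, against 153, 245 and 202 CPM in Vehicle libraries, also with overlap. Neither passed (edgeR adjusted p = 0.474 and 0.148). Tgfbi, a matrix protein induced by transforming growth factor beta, Plac8, a gene of blood monocytes, and Cxcl2, a neutrophil chemokine, overlapped between groups as well and did not pass (edgeR adjusted p = 0.275, 0.378 and 0.734).

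**Figure D4:**
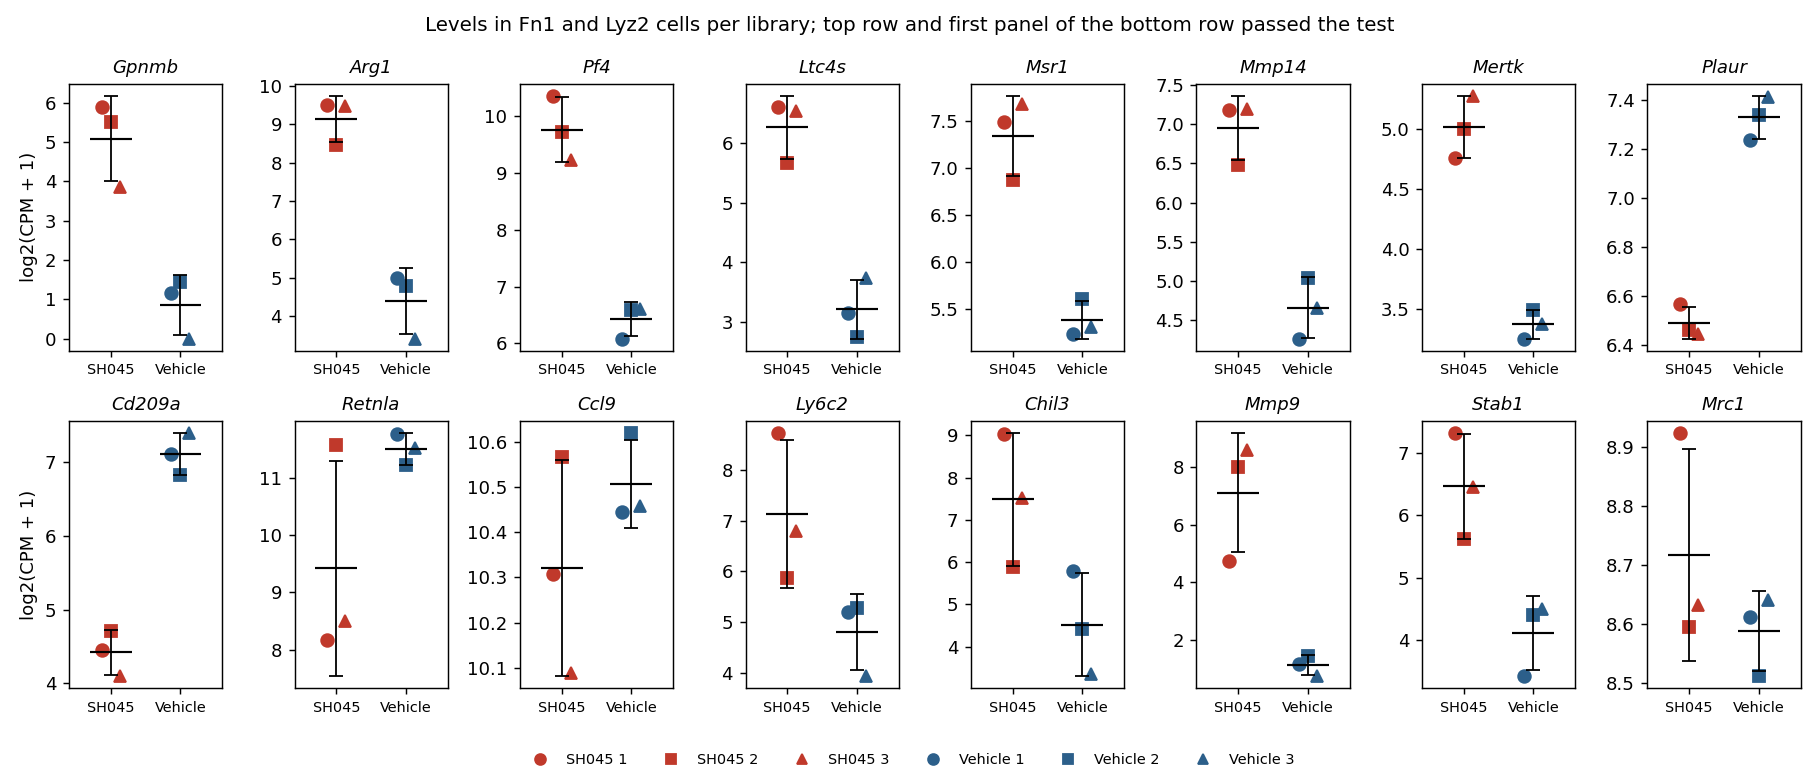
Level of 16 genes in Fn1+ Lyz2+ cells (y axis, log2 of CPM plus 1, a separate range per panel) in SH045 and Vehicle libraries, with the mean as a bar and the SD as whiskers (n = 3 each). The genes of the top row and Cd209a passed the test and do not overlap between groups, while Retnla and Ccl9 in SH045 library 2 lie among the Vehicle points.

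Lists of genes were read by their counts and medians, beside a median log2 change of 0.01 over all 8157 genes tested. Of all those genes 0.454% were called higher and 0.0981% lower, 4197 had a positive and 3960 a negative change. Of the 17 measured genes of resident and C1q macrophages, 5 rose and none fell, with a median of 0.83. They were Pf4, Mertk, Maf, Apoe and F13a1. Mertk, a receptor for the uptake of dying cells, had 26.0, 31.0 and 37.7 CPM in SH045 libraries, against 8.52, 10.2 and 9.32 CPM in Vehicle libraries. Its log2 change was 1.54 ± 0.31 (edgeR adjusted p = 0.04). Maf, a transcription factor of tissue macrophages, rose by 1.31 ± 0.23, Apoe, the lipid carrier apolipoprotein E, by 1.25 ± 0.21, and F13a1, the A subunit of clotting factor XIII, by 1.55 ± 0.28 (edgeR adjusted p = 0.0234, 0.0178 and 0.0314). The call of Mertk was lost without SH045 library 3 (0.117) or any 1 Vehicle library (0.118 to 0.185), with log2 changes of 1.42 to 1.70 in the 6 fits. Those of Maf and F13a1 were lost without any 1 Vehicle library (0.051 to 0.178), with changes of 0.95 to 1.49 for Maf and 1.16 to 1.76 for F13a1. That of Apoe was lost without SH045 library 1 (0.192), SH045 library 3 (0.098), Vehicle library 1 (0.168) or Vehicle library 3 (0.132), with changes of 1.08 to 1.52. In Fn1-zero cells of the same mice 6 of 20 measured genes of the list rose and none fell, with a median of 0.43. Stab1 had 158, 48.2 and 86.2 CPM in SH045 libraries, against 9.73, 20.1 and 21.6 CPM in Vehicle libraries, and missed the threshold (log2 change 2.22 ± 0.41, edgeR adjusted p = 0.0547).

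Of 18 measured genes of phagocytosis, Msr1 and Mertk rose and none fell, with a median of 0.82. Of 17 genes of lipid-associated macrophages, Gpnmb, tested only because of its level in SH045 libraries, and Apoe rose, with a median of 0.10. Trem2, a lipid-sensing receptor of that set, had 187, 169 and 156 CPM in SH045 libraries, against 64.5, 112 and 66.6 CPM in Vehicle libraries. Its groups did not overlap, but its adjusted p was 0.0808 in edgeR, and 0.0155 without Vehicle library 2. Spp1, osteopontin, had 818, 557 and 940 CPM in SH045 libraries, against 710, 419 and 171 CPM in Vehicle libraries, which overlapped.

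Of 19 measured monocyte genes 1 was called. Itgam, an integrin of the complement receptor CR3, rose by 0.82 ± 0.17 (edgeR adjusted p = 0.0417), and none fell, with a median of 0.80. Its call was lost without any library other than SH045 library 2 (0.056 to 0.225). The 8 classical monocyte markers summed to 3591, 1427 and 1780 CPM in SH045 libraries, against 1525, 1252 and 1446 CPM in Vehicle libraries, so SH045 library 2 lay within the Vehicle range. Ly6c2 had 424, 57.4 and 110 CPM in SH045 libraries, against 35.9, 37.8 and 14.3 CPM in Vehicle libraries. Chil3 had 521, 58.5 and 183 CPM in SH045 libraries, against 54.1, 20.4 and 9.32 CPM in Vehicle libraries. Vcan had 212, 27.5 and 64.6 CPM in SH045 libraries, against 10.95, 6.13 and 3.99 CPM in Vehicle libraries. All 3 genes were highest in SH045 library 1, lay above Vehicle in every SH045 library and did not pass (edgeR adjusted p = 0.308, 0.31 and 0.177). For Vcan the adjusted p was 0.027 without SH045 library 1 and 0.0114 without SH045 library 2. The Ly6c2 transcripts lay mostly in C1q-poor cells, with 927, 133 and 256 CPM in SH045 libraries, against 69.2, 95.2 and 38.6 CPM in Vehicle libraries. In C1q-rich cells Ly6c2 was at most 17.6 CPM in SH045 and 5.83 CPM in Vehicle libraries.

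Matrix genes and fibronectin receptors were read next. Of 17 matrix and matrix-binding genes, Ecm1, extracellular matrix protein 1, and F13a1 rose and none fell, with a median of 0.79. Ecm1 changed by 1.25 ± 0.18 on the log2 scale (edgeR adjusted p = 0.0044), and the value was 0.0566 without Vehicle library 3. Thbs1, thrombospondin 1, had 673, 21.8 and 178 CPM in SH045 libraries, against 12.8, 22.5 and 12.3 CPM in Vehicle libraries, so that SH045 library 2 lay within the Vehicle range. None of the 8 measured fibronectin receptor genes was called, and all 8 had a positive change, with a median of 0.79. In Fn1-zero cells 8 of 9 were positive, with a median of 0.185. Cd44, a hyaluronan and fibronectin receptor, had 477, 267 and 280 CPM in SH045 libraries, against 175, 180 and 161 CPM in Vehicle libraries (edgeR adjusted p = 0.0606, and 0.0184 without SH045 library 2).

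Among 17 genes of alternative activation only Arg1 was called, and the median was 0.01. Retnla was lower in 2 of the 3 SH045 libraries, as above. Ear2 had 351, 1138 and 945 CPM in SH045 libraries, against 1380, 1404 and 1661 CPM in Vehicle libraries, without overlap. Ccl24 was higher, with 60.8, 328 and 78.1 CPM in SH045 libraries, against 9.73, 5.11 and 25.0 CPM in Vehicle libraries (edgeR adjusted p = 0.26). Genes of the list thus lay in both directions. Of 23 chemokine and receptor genes only Pf4 was called. Ccl6 had 3140, 6179 and 4464 CPM in SH045 libraries, against 7851, 7938 and 7196 CPM in Vehicle libraries, without overlap (edgeR adjusted p = 0.126, and 0.0094 without SH045 library 2).

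Of the 16 genes of the plasminogen system and proteases, Mmp14 rose and Plaur fell. None of 13 growth factor and cytokine genes was called, with 12 of them positive. In that list Vegfa, vascular endothelial growth factor A, had 66.0, 18.4 and 16.2 CPM in SH045 libraries, against 6.69, 11.2 and 3.00 CPM in Vehicle libraries, and Tgfb1 had 240, 201 and 245 CPM in SH045 libraries, against 172, 151 and 180 CPM in Vehicle libraries. Neither passed (edgeR adjusted p = 0.158 and 0.395). None of the 22 glycolysis and hypoxia genes, 22 interferon response genes or 21 immediate early and heat shock genes was called. Of 30 cell cycle genes 1 fell, Ccnb2.

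No gene of the antigen-presentation and respiratory lists was called. All 8 measured genes of MHC class II, which presents antigen to helper T cells, had a negative change, with a median of -0.84. H2-Ab1 had 5119, 11234 and 9319 CPM in SH045 libraries, against 15880, 13786 and 14073 CPM in Vehicle libraries, without overlap (edgeR adjusted p = 0.177). Of 41 oxidative phosphorylation genes, 38 had a negative change, with a median of -0.35. In Fn1-zero cells of the same mice 9 of 10 MHC class II genes and 39 of 41 oxidative phosphorylation genes were negative, with medians of -0.52 and -0.36. Genes with short transcripts ran lower in SH045 in general. Across 8152 genes the log2 change had a Spearman correlation of 0.362 with transcript length, given as a description because genes are not independent replicates. The median was -0.20 in the 10% shortest genes and 0.28 in the 10% longest, and its part in the list medians was not tested.

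Fn1-zero Lyz2 cells of the same libraries gave 592 calls among 11859 genes (4.99%), 343 higher (2.89%) and 249 lower (2.1%), on 8985 cells. The groups did not overlap for 32.9% of those genes. Of the 45 genes called in Fn1+ Lyz2+ cells, 13 were called there too, all in the same direction. That is 28.9% of the first list and 2.2% of the second. Plaur fell in both populations, by 1.14 ± 0.21 in Fn1-zero cells (edgeR adjusted p = 0.0156), and Abca1, a cholesterol exporter, rose by 1.56 ± 0.22 in Fn1+ Lyz2+ cells and by 1.08 ± 0.13 in Fn1-zero cells (edgeR adjusted p = 0.0044 and 0.00215). The first Abca1 value was 0.051 without Vehicle library 1. Mertk also rose in both, by 0.83 ± 0.16 in Fn1-zero cells (edgeR adjusted p = 0.0157).

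Whether the SH045 change differed between the 2 populations was tested directly, in 1 edgeR fit over 12 sums with the library as a block. Of 11288 genes, 52 differed (0.461%), 43 with a more positive (0.381%) and 9 with a more negative (0.0797%) change in Fn1+ Lyz2+ cells. Of the 52, 14 were among the 45 called in Fn1+ Lyz2+ cells alone. Msr1 had the smallest p, with a difference of 1.74 ± 0.17 (edgeR adjusted p = 7.26e-06). In Fn1-zero cells it had 102, 67.4 and 97.8 CPM in SH045 libraries, against 78.2, 88.9 and 71.6 CPM in Vehicle libraries, so it was higher after SH045 in the Fn1+ Lyz2+ cells and overlapped in the others. Clec4d, a C-type lectin of myeloid cells, differed by 2.92 ± 0.32 and Mmp14 by 1.97 ± 0.24 (edgeR adjusted p = 2.6e-05 and 0.000199). S100a4, a calcium-binding protein of motile cells, had 1123, 931 and 932 CPM in SH045 libraries, against 699, 563 and 667 CPM in Vehicle libraries, in Fn1+ Lyz2+ cells. In Fn1-zero cells it fell by 0.56 ± 0.14 (edgeR adjusted p = 0.0386), and the 2 changes differed by 0.94 ± 0.12 (edgeR adjusted p = 0.000127).

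Mrc1 stood out among the genes with a more negative change. In Fn1+ Lyz2+ cells it had 484, 386 and 396 CPM in SH045 libraries, against 390, 364 and 398 CPM in Vehicle libraries. In Fn1-zero cells it had 980, 767 and 1008 CPM in SH045 libraries, against 487, 535 and 553 CPM in Vehicle libraries. It overlapped in the Fn1+ Lyz2+ cells and rose in the others. The difference was -0.75 ± 0.12 (edgeR adjusted p = 0.0015) and was called in all 6 fits without 1 library. For Arg1 and Pf4, by contrast, the difference of 4.27 ± 0.69 and 3.24 ± 0.60 did not pass (edgeR adjusted p = 0.145 and 0.269), nor did that of Retnla (0.768). These 3 genes cannot be said to respond in Fn1+ Lyz2+ cells alone.

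**Figure D5:**
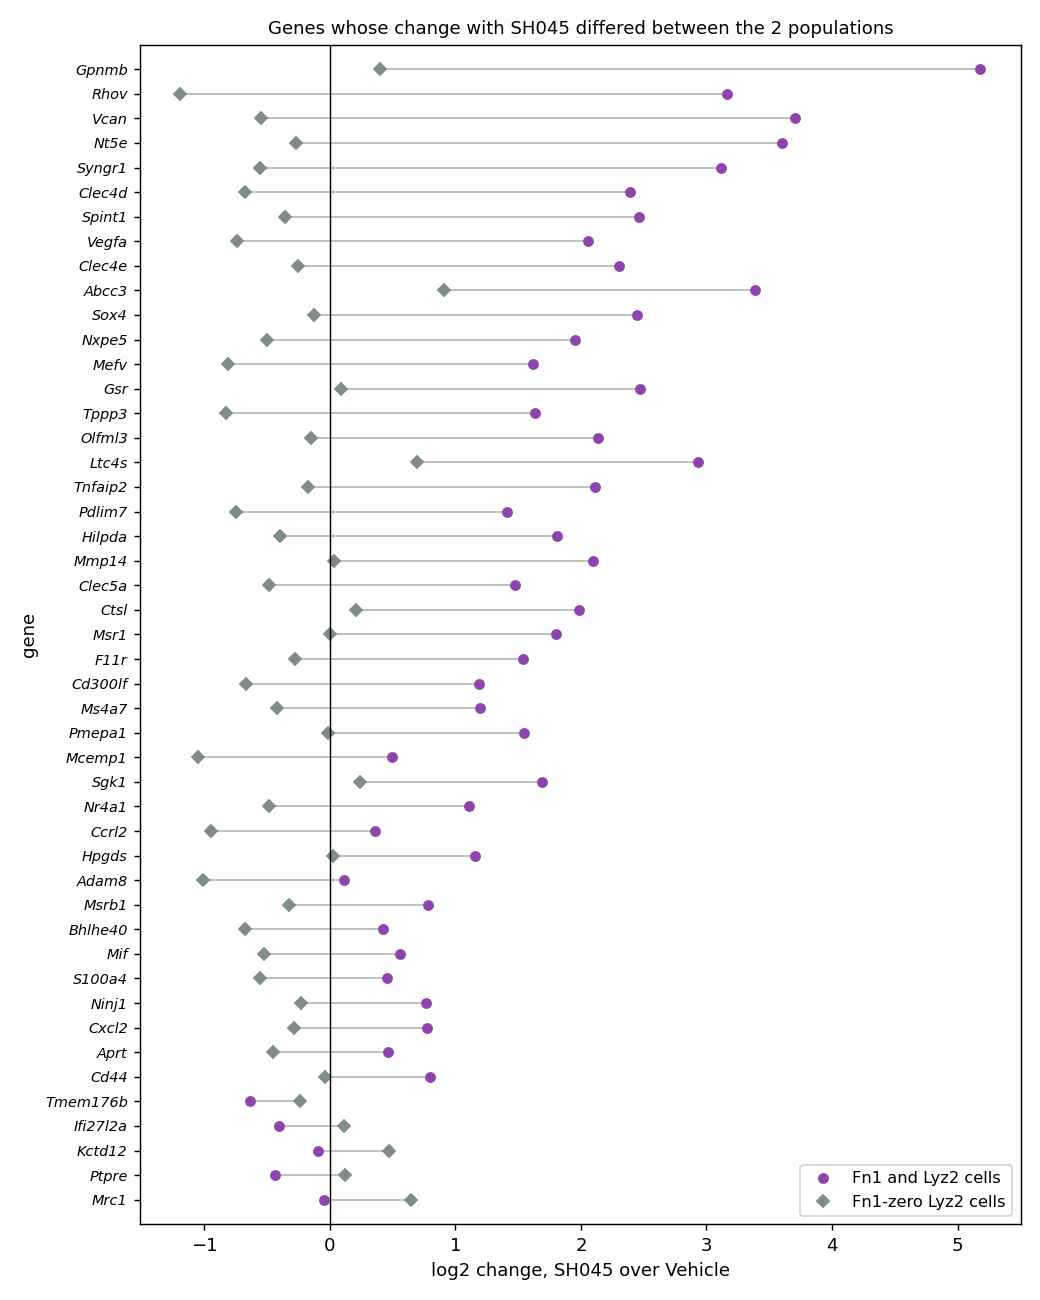
Log2 change, SH045 over Vehicle (x axis), in Fn1+ Lyz2+ cells (purple circles) and Fn1-zero Lyz2 cells (grey diamonds) for 47 of the 52 genes whose change differed between the populations, leaving out mitochondrial genes and gene models without a symbol. Most circles lie right of their diamonds, and Mrc1 has its diamond to the right of its circle.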

How the data were processed

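The authors deposited UMI counts per gene and barcode for each single-cell library, with reads assigned to mm10 per the submitters' processing notes. The aligner, counting tool and cell calling are not given in the sources used here. Each library's lowest barcode held at least 2166 UMIs. Of 31276 gene IDs, 31225 were in GENCODE M21 (GRCm38), which gave lengths and positions. Cells were selected on counts, and levels are CPM of UMIs summed per library. P-values measure the spread between 3 mice per group. Contralateral kidneys and spatial data were not analysed here.

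Tests used edgeR 4.0.16 (TMM scaling, filterByExpr, robust quasi-likelihood fits, Benjamini-Hochberg over all genes tested), after checks on simulated data. Rule genes were described, not tested. Shares used two-sided exact permutation tests over libraries. No doublets were removed, and Scrublet scores (scanpy 1.11.5) served as an alternative. Alternatives also covered DESeq2 1.42.0, filters, thresholds and single libraries. The cells and the gene lists were chosen with earlier results of these data known. Named genes were fixed genes, the 10 largest rises and falls among calls, the 5 largest differences each way between populations, the 15 highest and 10 lowest ratios to Fn1-zero cells, and up to 4 genes per list by p; genes outside these were chosen after their values were seen.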

Additional observations from a re-analysis of the deposited data

Results flagged for a closer look

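The SH045 change differed between Fn1+ Lyz2+ cells and Fn1-zero Lyz2 cells by the direct test of that difference, and the 5 largest differences each way are given here as log2 values with edgeR adjusted p-values. More positive in Fn1+ Lyz2+ cells were Gpnmb (4.97, edgeR adjusted p 0.0206), Rhov, a small GTPase (4.53, edgeR adjusted p 0.0266), Vcan (4.09, edgeR adjusted p 0.000127), Nt5e, the CD73 ectonucleotidase (3.96, edgeR adjusted p 0.0238), and Syngr1 (3.65, edgeR adjusted p 0.000908). More negative were Mrc1 (-0.75, edgeR adjusted p 0.0015), Ptpre, a tyrosine phosphatase (-0.63, edgeR adjusted p 0.0168), Kctd12 (-0.63, edgeR adjusted p 0.0258), Ifi27l2a, an interferon-induced gene (-0.57, edgeR adjusted p 0.0269), and Tmem176b, a membrane protein of myeloid cells (-0.47, edgeR adjusted p 0.0285). The calls of Vcan, Syngr1 and Mrc1 held in all 6 fits without 1 library. The Gpnmb call was lost without any 1 Vehicle library. That of Rhov was lost without SH045 library 3, Vehicle library 1 or Vehicle library 3, and that of Nt5e without SH045 library 1, SH045 library 3, Vehicle library 2 or Vehicle library 3. That of Ptpre was lost without SH045 library 3, Vehicle library 2 or Vehicle library 3, and that of Kctd12 without any library but SH045 library 2. That of Ifi27l2a was lost without SH045 library 2, SH045 library 3, Vehicle library 2 or Vehicle library 3, and that of Tmem176b without any library but SH045 library 2 or Vehicle library 1. For these 7 genes the highest adjusted p in edgeR fits without 1 library was 0.152 to 0.305. Fn1+ Lyz2+ cells held 32 UMIs of Rhov in SH045 and 13 in Vehicle, 42 of Nt5e in SH045 and 13 in Vehicle, and 78 of Gpnmb in SH045 and 7 in Vehicle. In the test of Fn1+ Lyz2+ cells alone, Gpnmb and Syngr1 had 0 Vehicle libraries over the filter level, so their direction there is no evidence. Which group carried each gene past the filter in the direct test was not examined. For low-count genes such as Gpnmb, Rhov, Nt5e and Syngr1, the direction of the difference is therefore not taken as evidence.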

How the results depend on the processing

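The 45 calls in Fn1+ Lyz2+ cells became 134 with DESeq2's test (104 higher, 30 lower), 363 with no filter on low counts (187 higher, 176 lower) and 17 in cells with fewer than 10 C1q UMIs, where SH045 library 3 held 19 cells. Leaving out 1 library gave 12 to 333 calls, the most without SH045 library 2 (333) and the fewest without Vehicle library 1 (12), 3 (13) or 2 (23). With transcript length removed, 50 were called (34 higher, 16 lower), 36 of them among the 45. No called gene reversed in any of these fits, and the cause of the changes was not tested. In Fn1-zero cells the 592 calls became 1230 with no filter, 163 with length removed (74 higher, 89 lower) and 0 in C1q-poor cells, and ranged over 5 to 901 without 1 library. The 52 differences between populations became 169 with no filter and 83 in C1q-rich cells, and 27 to 202 without 1 library.

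Libraries share replicate numbers. Same-numbered libraries deviated with correlations of -0.017, -0.0168 and 0.0977, against -0.106 to 0.106 for the other pairs. With 3 libraries per group, these values cannot decide whether the numbers pair the libraries. With a replicate block 47 genes were called, 28 of them among the 45.

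The log2 ratio of the share of kept barcodes, -1.54, was -1.22 to -1.76 without 1 library and -1.49 to -1.62 under other thresholds. The share among Lyz2 cells, -1.15, was -0.75 to -1.51, and the thinned share -1.18 to -1.83. For Fn1-zero cells the ratio, -0.09, was -0.33 to 0.05 without 1 library, reversing without SH045 library 1 (0.0511) or Vehicle library 3 (0.01).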
